A study of Mus musculus with 2254 samples.

Results

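The cells described here are the capillary and venous endothelial cells among single brain cells of Notch3 KO and Notch3 WT mice. They were chosen by 2 conditions on CPM, a gene's count in a cell scaled to a cell total of 1000000. The sum of Cldn5, a claudin that seals brain capillaries, and Pecam1, an adhesion molecule of all endothelium, had to reach 200 CPM. The sum of the arterial genes Gkn3, Bmx, Sema3g and Gja5 had to stay under 100 CPM. Of 2254 deposited cells, 2252 held at least 50000 counts, and 181 of these (8.04%) met both conditions. Another 61 cells met the first condition but held 100 CPM or more of the arterial genes, and serve below as arterial endothelial cells.

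All mice were adult C57BL/6 carrying SM22-Cre and Rosa26-stop-tdTomato, so that a smooth muscle promoter drives Cre and switches on a red reporter, and the groups differ only in the label Notch3 KO or Notch3 WT. Cells were sorted by fluorescence into wells and sequenced by Smart-seq2, a full-length method without molecular identifiers, and the sort gates are not given in the sources used here. KO cells filled plates 043, 467 and 471 and WT cells plates 044, 468 and 469, so genotype and plate cannot be told apart. The labels name no animal, each genotype therefore counts as 1 sample, and no test between genotypes was made.

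Capillaries and small veins make up most of the brain's vessel length. Their endothelial cells form the blood-brain barrier: tight junctions close the gaps between them, solute carriers move glucose, amino acids and hormones, efflux pumps return drugs to the blood, and vesicle traffic through the cell is kept low. Wnt signals keep this program on, and pericytes wrap the capillary wall. Mfsd2a and Tfrc are known from capillaries, Slc38a5 and Nr2f2 from the venous side, and Notch3 is a receptor of the vessel's mural cells, meaning pericytes and smooth muscle.

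The plates held very different numbers of these cells. WT plate 469 held 103 of 373 cells (27.6%, exact Clopper-Pearson interval 23.1% to 32.5%) and WT plate 468 held 55 of 374 (14.7%, 11.3% to 18.7%). WT plate 044 held 8 of 379 (2.11%, 0.916% to 4.12%). The KO plates held 10 of 378 on plate 043 (2.65%), 4 of 370 on plate 467 (1.08%) and 1 of 378 on plate 471 (0.265%). The WT plates overlapped with the KO plates, since plate 044 lay below KO plate 043. In all, 15 of 1126 KO cells and 166 of 1126 WT cells were members. Totals ran from 64901 to 493577 counts per member with a median of 316469. Intervals here and below cover counting error only.

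Since the choice used Cldn5 and Pecam1, other endothelial genes were used to check the label. Of the 181 cells, 160 held at least 50 CPM of 2 or more of Slco1a4 (an organic anion transporter), Kdr (the main VEGF receptor) and Abcb1a (the P-glycoprotein pump), counting 12 KO cells out of 15 and 148 WT cells out of 166. For these 3 genes the later WT plates were near each other: Slco1a4 stood at 2769 CPM on plate 468 and 3566 CPM on plate 469, Kdr at 663.8 and 634.3 CPM, and Abcb1a at 975.5 and 1088 CPM. On WT plate 044 the same genes were at 1905, 578.7 and 380.4 CPM, and on KO plate 043 at 3403, 617.7 and 671.8 CPM. Plate 044 was the lowest of the 4 for each gene. On that plate 4 of the 8 cells held 2 or more of these markers at 50 CPM. On plates 468 and 469, 49 of 55 and 95 of 103 cells did. Flt1, the decoy VEGF receptor, Tek, the angiopoietin receptor, and Itm2a were read in 172, 158 and 172 of the 181 cells.

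A smaller set met the rule without these markers. In 17 cells (3 KO, 14 WT) none of Slco1a4, Kdr and Abcb1a reached 50 CPM. Of these, 13 held Cldn5 of 200 CPM or more with Pecam1 under 20 CPM. Astrocyte genes (Aqp4, Slc1a3, Slc1a2, Gja1, Aldoc and Gfap) summed to at least 500 CPM in 8 of the 17, Acta2 reached 1000 CPM in 5 and Rgs5 reached 1000 CPM in 6. Flt1, which the rule did not use, was not absent from all 17. It stood at 6370 CPM in a cell of plate 469 and at 458 and 341 CPM in cells of plates 467 and 043. The cell of plate 469 also held 16620 CPM of Rgs5, and 3193 CPM of Pecam1, a gene of the rule. The members nearest the threshold stood at 208, 235, 245 and 247 CPM of Cldn5 + Pecam1, on plates 467 and 044, and carried 11238 to 17350 CPM of mural genes. The nearest cells left out stood at 197, 187, 184 and 179 CPM. For the arterial sum, the nearest members stood at 99.8, 95.2 and 81.3 CPM and the nearest cells left out at 106, 111 and 121 CPM, while 149 members held no arterial read.

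Mural reads differed widely among the members. The sum of Acta2 and Myh11, the contractile proteins of smooth muscle, and Rgs5, a G-protein regulator abundant in pericytes, was under 100 CPM in 63 of 181 cells (34.8%, interval 27.9% to 42.2%). It lay from 100 to under 1000 CPM in 33 cells and at 1000 CPM or more in 85. All 63 cells with under 100 CPM were on WT plates 468 (24 cells) and 469 (39 cells). None of the 15 KO cells was under 100 CPM, and their sums ran from 628 to 22152 CPM with a median of 10186. On WT plate 044 the 8 cells ran from 131 to 17350 CPM with a median of 9797. The medians on WT plates 468 and 469 were 532 and 481 CPM. WT plate 044 thus stood with the KO plates and apart from the other WT plates.

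**Figure D1:**
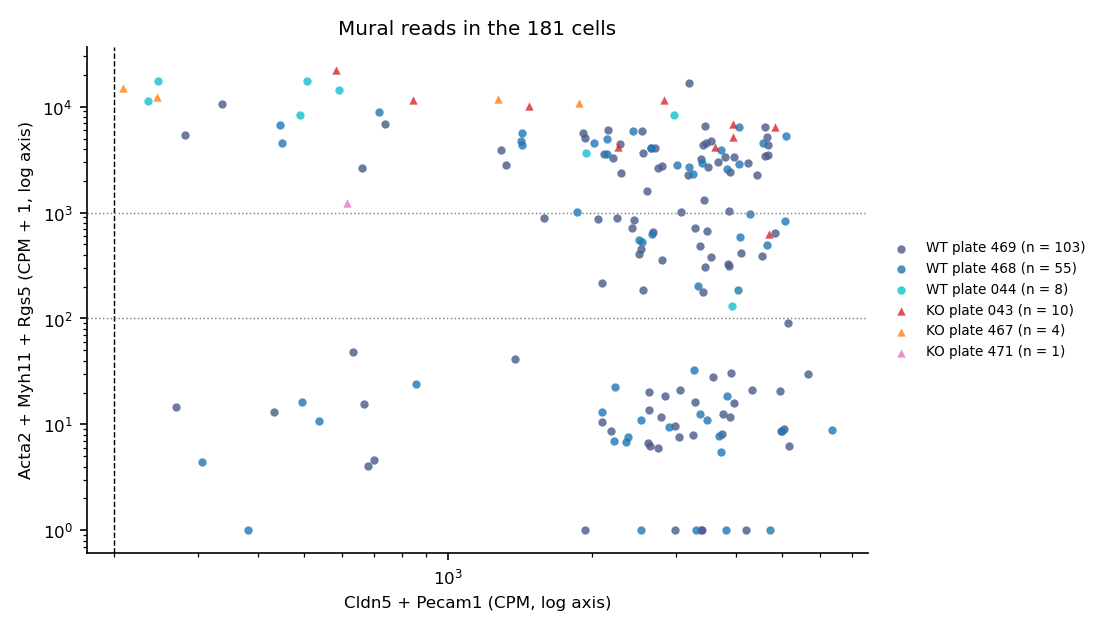
Each point is 1 of the 181 cells, with Cldn5 + Pecam1 in CPM on the x axis and Acta2 + Myh11 + Rgs5 in CPM plus 1 on the y axis, both logarithmic; triangles are KO plates and circles WT plates, the dashed line marks 200 CPM and the dotted lines 100 and 1000 CPM of mural genes. All KO cells and the cells of WT plate 044 lie above the lower dotted line, and the 63 cells below it are on WT plates 468 and 469.

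The mural genes fell into distinct patterns. Rgs5 reached 1000 CPM in 79 of the 181 cells, and in 64 of these Acta2 was under 100 CPM. Acta2 reached 1000 CPM in 17 cells: 9 of 15 KO cells, 6 of 8 cells of WT plate 044 and 2 of 158 cells of WT plates 468 and 469. On those later WT plates Rgs5 was therefore high in many cells (62 of 158 at 1000 CPM or more) and Acta2 in few. In KO plate 043, 9 of 10 cells held Rgs5 of 1000 CPM or more, with Acta2 under 100 CPM in 5 and of 1000 CPM or more in 4.

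Rgs5 came partly with other pericyte genes and partly without them. Of the 62 cells of WT plates 468 and 469 with Rgs5 of 1000 CPM or more, 29 also held at least 500 CPM in sum of the pericyte genes Kcnj8, Abcc9, Vtn, Atp13a5, Higd1b, Ndufa4l2 and Pdgfrb. The sum in these 62 cells ran from 0 to 25658 CPM with a median of 456. It reached 500 CPM in 5 of 32 cells with Rgs5 from 100 to under 1000 CPM and in 9 of 64 cells with less. The endothelial reads of the same cells did not follow Rgs5: median Slco1a4 was 3339, 3644 and 3719 CPM from the highest to the lowest Rgs5 class, and median Flt1 was 4286, 4946 and 3915 CPM. The Spearman correlation of Rgs5 with the 7-gene sum was 0.64 over 55 cells of plate 468 and 0.37 over 103 cells of plate 469, where all points of a plate share the plate. The correlation with Acta2 was -0.17 and 0.08, and with total counts 0.13 and 0.03. With Slco1a4, which the rule did not use, it was -0.13 and -0.13. With Cldn5 it was -0.09 and -0.13, but Cldn5 helped to choose the members, which limits its range.

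**Figure D2:**
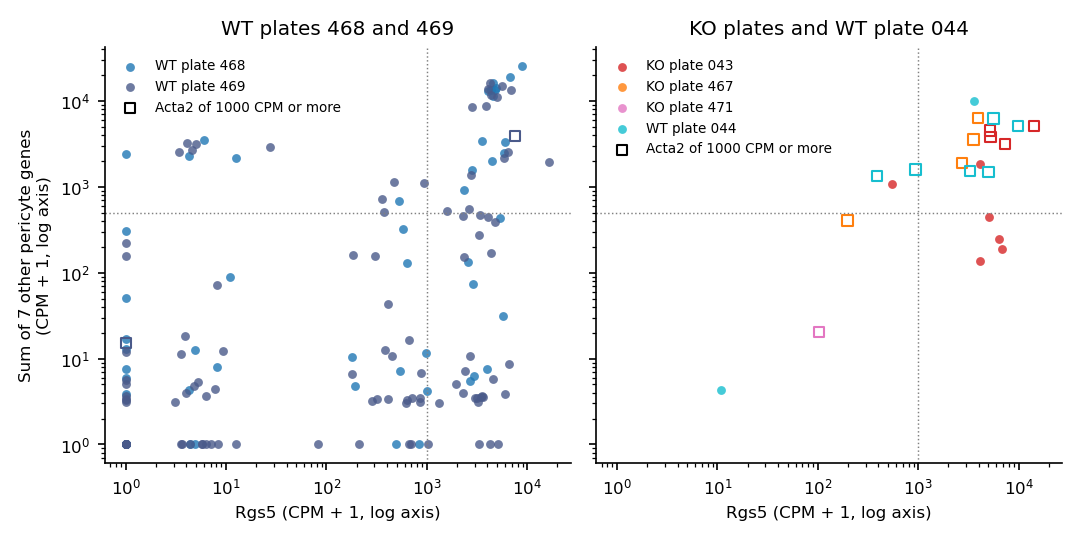
Each point is 1 member, with Rgs5 on the x axis and the sum of 7 other pericyte genes on the y axis, both in CPM plus 1 on logarithmic axes; the left panel shows WT plates 468 and 469, the right panel the KO plates and WT plate 044, open squares are cells with Acta2 of 1000 CPM or more, and dotted lines mark 1000 CPM of Rgs5 and 500 CPM of the sum. In the left panel 29 of the 62 cells right of the vertical line lie above the horizontal line.

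The 52 members of plates 468 and 469 with under 100 CPM of mural genes and with 2 of the 3 other endothelial markers give the levels with the least reads of other cells. In these, Rgs5 was at 1.75 CPM on plate 468 and 5.69 CPM on plate 469, Vtn at 11.3 and 3.25 CPM, and Slc1a3 at 3.11 and 1.81 CPM. The astrocyte glutamate transporter Slc1a3 stood at 102 and 91.8 CPM over all members of these plates. Endothelial genes were somewhat higher than over all members: Flt1 stood at 4137 and 4779 CPM, and Cldn5 at 2395 and 2177 CPM. These cells were chosen by endothelial markers, so a rise was favoured by the choice. With the mural limit alone, Flt1 averaged 3761 CPM over these plates, against 4037 CPM over all members. Slco1a4 averaged 3132 against 3168 CPM. Among the other marker lists, Cd3e was read in 0 of 181 cells, and fibroblast, microglia or macrophage, and oligodendrocyte genes were at a median of 0 to 5.69 CPM in sum on plates 468 and 469, reaching 8216, 20194 and 8397 CPM in single cells.

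Solute carriers of the barrier were read in most members. Over the sums of plates 468 and 469, 17 of 17 listed carriers reached 10 CPM and 16 reached 100 CPM, with a median of 832 CPM. Of all 30950 table entries, 33.5% reached 10 CPM and 8.16% reached 100 CPM. Slc2a1, the glucose transporter, stood at 2523 CPM on plate 468, 2551 on plate 469, 1349 on plate 044 and 2783 on plate 043. Slco1c1, which carries thyroid hormone, stood at 2268, 2189, 1084 and 2037 CPM in the same order, and the taurine transporter Slc6a6 at 1982, 2157, 445 and 1481 CPM. Plates 468 and 469 were close together for these 3 genes. Plate 044, where 4 of the 8 summed cells held 2 of the 3 endothelial markers, was the lowest. Per kilobase of the longest transcript, over plates 468 and 469, Slco1a4 (829) was the highest carrier, followed by Slc2a1 (778) and Slco1c1 (701).

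Efflux pumps were fewer in number. Abcg2 stood at 974 and 1128 CPM on plates 468 and 469 and Abcc4 at 216 and 422 CPM, whereas Abcb1b, the copy of P-glycoprotein used elsewhere in the body, stood at 2.41 and 3.45 CPM. Of vesicle genes, the transferrin receptor Tfrc stood at 911 and 812 CPM, Cav1, the coat protein of caveolae, at 842 and 814 CPM, and the insulin receptor Insr at 391 and 515 CPM. The caveolar proteins Cavin1 and Cavin2 are listed under their older symbols Ptrf and Sdpr. Of the 12 vesicle genes, 11 reached 10 CPM on these plates, against 33.5% of all table entries. Plvap, the diaphragm protein of leaky vessels, did not.

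Junction genes were read in most members. Of 15 genes, 14 reached 10 CPM and 12 reached 100 CPM over plates 468 and 469, with a median of 412 CPM. Of all table entries, 33.5% and 8.16% did. The 15 include Cldn5 and Pecam1, whose sum chose the members, so these counts and the median were favoured by the choice. Occludin (Ocln) stood at 535 and 595 CPM on plates 468 and 469, 562 on plate 044 and 1034 on plate 043, so that the KO plate was the highest. Jam2 was also highest on the KO plate, with 645, 697, 510 and 1120 CPM. Esam, an adhesion molecule, varied least, with 1352, 1224, 1287 and 1449 CPM. Cgn, a junction scaffold, was the gene under 10 CPM, at 0.268 and 0.365 CPM on plates 468 and 469.

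Of the Wnt pathway genes, 13 of 13 reached 10 CPM and 9 reached 100 CPM on plates 468 and 469, against 33.5% and 8.16% of all table entries. Lef1, the transcription factor that carries the signal with beta-catenin, stood at 552 and 873 CPM, 148 on plate 044 and 381 on plate 043, and was read in 168 cells. Beta-catenin itself (Ctnnb1) stood at 1464, 1677, 1206 and 1705 CPM. Apcdd1, a target and inhibitor of the pathway, stood at 298, 223, 23.5 and 247 CPM. Plate 044, where 4 of the 8 summed cells held 2 of the 3 endothelial markers, was the lowest for each.

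Among 17 endothelial transcription factors, all reached 10 CPM and 12 reached 100 CPM, against 33.5% and 8.16% of all table entries. Per kilobase of the longest transcript, Sox18 was the highest of them in CPM over plates 468 and 469 (233), followed by Lef1 (195), Klf2 (177) and Sox17 (109). Ets1 stood at 525 and 482 CPM on plates 468 and 469, and the barrier factors Foxf2 and Foxq1 at 214 and 266 CPM and at 220 and 233 CPM. The flow-responsive factors Klf2 and Klf4 stood at 289 and 365 CPM and at 220 and 266 CPM.

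Among the vascular growth factor genes, several receptors were high, while the ligands and some other receptors were low. Flt1 stood at 3704 and 4369 CPM on plates 468 and 469, Ptprb, the phosphatase that acts on Tek, at 1201 and 1641 CPM, and Tek at 996 and 1314 CPM. The ligand Angpt2, an antagonist of Tek, stood at 38.9 and 16.4 CPM, and Apln, the apelin peptide, at 0.134 and 7.43 CPM. Its receptor Aplnr was low as well, at 17.9 and 14.4 CPM with a read in 8 of 181 cells, and so was the co-receptor Nrp2, at 21.5 and 30.9 CPM. Flt4, the receptor of lymphatic and sprouting endothelium, stood at 164 and 217 CPM. For the signals by which endothelium recruits mural cells, Pdgfb stood at 261 and 330 CPM, Eng, a TGF-beta co-receptor, at 1002 and 1211 CPM, Acvrl1, its partner kinase, at 503 and 695 CPM, and the target genes Id1 and Id3 at 464 and 450 CPM and at 625 and 736 CPM.

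**Figure D3:**
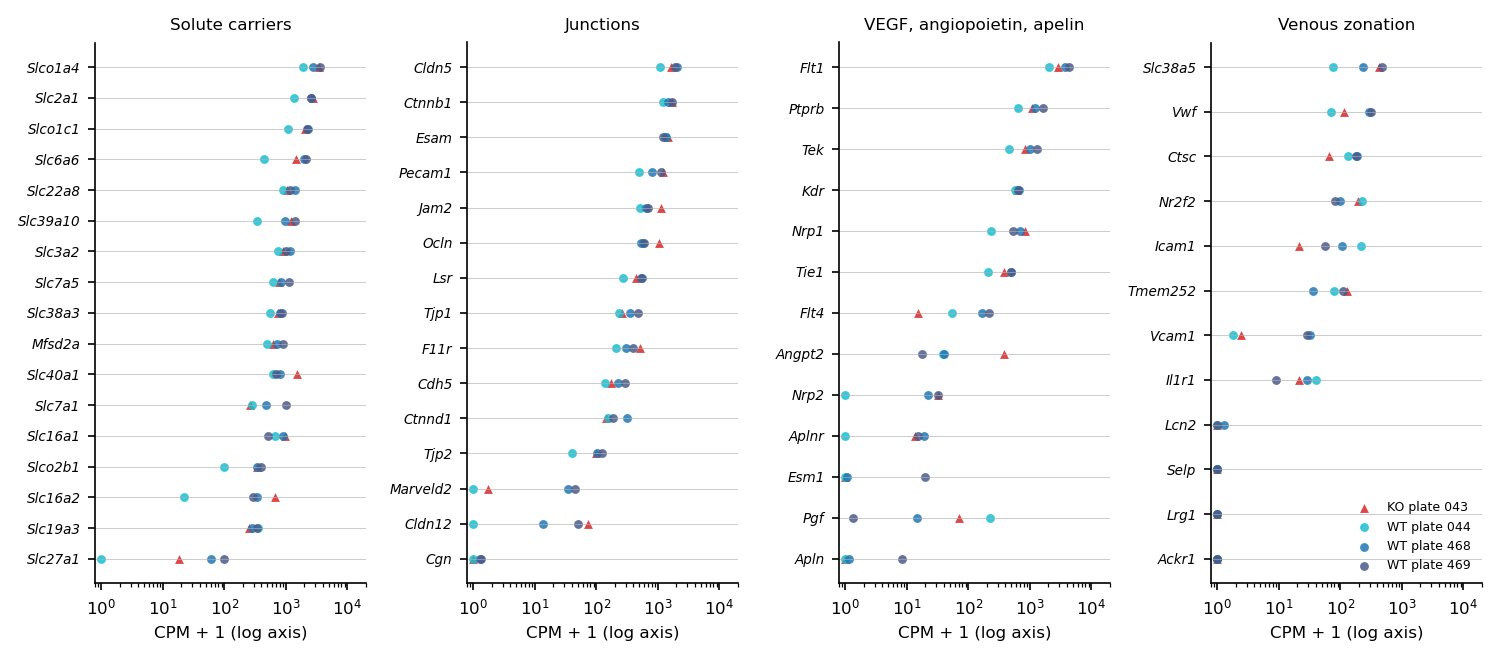
Levels of genes from 4 gene lists in the members of KO plate 043 (triangles) and WT plates 044, 468 and 469 (circles), as summed counts in CPM plus 1 on a logarithmic x axis, with genes ordered by their mean over plates 468 and 469. Plates 468 and 469 lie close together for most carriers and junction genes, plate 044 (8 cells) lies left of them for most carriers, and Ackr1, Lrg1 and Selp are at the left edge.

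Notch pathway genes of the members differed in the cells that held them. Notch1 stood at 317 and 294 CPM on plates 468 and 469, 139 on plate 044 and 160 on plate 043, and was read in 146 cells. Notch4, the receptor found mainly in endothelium, stood at 69.3 and 111 CPM on plates 468 and 469, 0.399 on plate 044 and 11.8 on plate 043. Notch3 stood at 97.9 and 83.2 CPM on plates 468 and 469, and at 0.389 and 12.1 CPM in the 52 cells with few mural reads, of which 6 held a Notch3 read. Its target Heyl went from 166 and 50.0 CPM to 0 and 0.451 CPM in those 52 cells, whereas Notch1 stood there at 310 and 244 CPM. The 52 cells were chosen by few mural reads and also by endothelial markers, and the part of each in these falls was not tested. The Spearman correlation of Notch3 with Rgs5 was 0.49 on plate 468 and 0.17 on plate 469. Notch3 reached 50 CPM in 19 of 62 cells with Rgs5 of 1000 CPM or more. It did so in 2 of 32 cells with Rgs5 from 100 to under 1000 CPM and in 5 of 64 with less.

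Adhesion and vessel tone genes included Cd34 at 1378 and 1205 CPM on plates 468 and 469, the sialomucin Podxl at 822 and 1057 CPM, the anticoagulant receptor Thbd at 444 and 334 CPM and Nos3, the endothelial nitric oxide synthase, at 321 and 513 CPM. Of all table entries, 8.16% reached 100 CPM on these plates. Of the interferon and MHC class I genes, 12 of 12 reached 100 CPM, led by Ly6e at 2131 and 1945 CPM. Of the immediate early genes, 12 of 15 reached 100 CPM, with Fos at 454 and 758 CPM on plates 468 and 469 and 1332 CPM on plate 044. In the cell cycle list, Mki67 was read in 0 of 181 cells, which allows a share of up to 1.66% of cells with a read. The cyclin gene Ccna2 was read in 30 cells and Top2a in 24, at 14.8 and 15.3 CPM and at 0.669 and 3.31 CPM on plates 468 and 469, and the sum of the 6 genes reached 500 CPM in 3 cells.

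Capillary genes were read far more widely than venous genes. All 10 listed capillary genes reached 100 CPM on plates 468 and 469, with a median of 839 CPM, against 4 of 13 venous genes, with a median of 71.5 CPM. Of all table entries, 8.16% did. Mfsd2a, a lipid transporter that restrains transcytosis, stood at 722 and 909 CPM on plates 468 and 469, 498 on plate 044 and 624 on plate 043, and was read in 150 of 181 cells. Slc38a5, a glutamine transporter, stood at 236, 470, 75.8 and 419 CPM and was read in 85 cells. Vwf, a clotting protein stored by veins and arteries, stood at 292 and 316 CPM on plates 468 and 469 and Nr2f2, the venous fate factor, at 99.2 and 81.6 CPM. The large-vein genes Ackr1, Lrg1 and Selp had no read in any of the 181 cells. In the 52 cells with few mural reads, Slc38a5 stood at 390 and 518 CPM, whereas Nr2f2 stood at 49.2 and 35.4 CPM, below its level over all members. Ctsc, a protease of the venous list, stood at 187 and 177 CPM over all members and at 111 and 227 CPM in the 52 cells. Vwf is shared with arteries and was lower in the members than in the arterial cells described below, so it does not separate veins from arteries here. The capillary part of the label thus has all 10 genes, and the venous part few, Slc38a5 and Ctsc among them.

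Capillary and venous reads occurred in the same cells. Of the 158 cells of plates 468 and 469, 55 held both Mfsd2a and Slc38a5 at 100 CPM or more, 65 held Mfsd2a alone, 15 Slc38a5 alone and 23 neither. An index was formed as the mean log2(CPM + 1) of 6 venous genes (Slc38a5, Nr2f2, Lrg1, Il1r1 and Ctsc among them) minus that of 6 capillary genes (Mfsd2a, Slc16a1, Spock2, Rgcc, Cxcl12, Tfrc). It ran from -10.10 to 2.69 with a median of -5.98 on plate 468, and from -10.45 to 2.58 with a median of -6.07 on plate 469. Its zero has no meaning of its own, since it sets levels of different genes against each other and Lrg1 had no read in any cell. The anchor means themselves were weakly related, with a Spearman correlation of -0.17 and -0.06 between them.

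At a limit of 0.4 over all members, no named gene outside the anchors followed this index on both plates. Of 7497 genes read in at least 20% of these cells, 1 (0.0133%) had a Spearman correlation of 0.4 or beyond with the index on both plates, a predicted gene model with -0.43 and -0.41, and none reached 0.4 in the other direction (0%). The nearest listed genes included Flt1 (-0.38 and -0.58), Slc2a1 (-0.37 and -0.41) and Slc7a1 (-0.34 and -0.44). In the positive direction they were Heyl (0.33 and 0.32), the smooth muscle gene Mylk (0.28 and 0.29) and Notch3 (0.26 and 0.26). Of the anchors, Slc38a5 itself had a correlation of 0.27 on both plates and Mfsd2a of -0.53 and -0.63. Both are part of the index, so these signs were favoured by how it was formed. With a limit of 0.3, 37 genes passed, and among cells with under 100 CPM of mural genes 26 passed, of which 0 were shared with the first count. The index had a correlation of -0.24 and -0.16 with total counts and of -0.31 and -0.25 with Cldn5 + Pecam1. With Rgs5 it was 0.07 and -0.02. The part of mural reads in the index was not tested. These correlations are across cells of a plate, which are not independent replicates.

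Set beside the 61 arterial endothelial cells, the members differed in transporters and zonation genes. Plates 043, 044, 468 and 469 had at least 5 cells of both kinds, with 6, 11, 6 and 13 arterial cells. A gene passed the size rule if it reached 10 CPM and was read in 20% of cells of either kind, differed by at least 2-fold in the mean log2(CPM + 1) over plates, and went the same way on all 4 plates. Of 8538 genes measured, leaving aside the 4 genes of the rule, 916 passed (10.7%), 547 higher in the members (6.41%) and 369 lower (4.32%). The split into these kinds was made on arterial genes, so genes that accompany those were bound to differ, and the values are a description with no test. Mural reads differed too: the median sum in arterial cells was 5967, 5758, 813 and 119 CPM on the 4 plates, against 6641, 9797, 532 and 481 CPM in the members, and their part in the result was not tested. Leaving out any 1 of the plates 043, 044, 468 or 469 raised the count to 1566, 1460, 1561 and 1651 genes. Of these, 779, 766, 801 and 844 were among the 916, in the same direction. Fewer plates then had to go the same way, and the cause of the rise was not tested.

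Of the 10 capillary genes, 9 were higher in the members, and of 17 solute carriers 10 were higher and 1 lower. The list medians were 2.21 and 2.07 on the log2 scale, against 0.10 for all genes measured. Slc7a5, a large amino acid transporter, stood at 784, 613, 818 and 1119 CPM in members of plates 043, 044, 468 and 469 and at 7.92, 9.93, 293 and 403 CPM in arterial cells. Mfsd2a stood in the arterial cells at 0.330, 41.4, 605 and 526 CPM, below the members on each plate, and by only 0.25 and 0.79 on the log2 scale on plates 468 and 469. Tfrc, with a difference of 1.31 (SD 0.45 over plates), varied least between plates among the 10 capillary genes. The arterial cells of plates 043 and 044 held far fewer capillary reads than those of plates 468 and 469, and the difference was smaller on the later plates for most genes.

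Among the genes with the largest differences, Slco2b1 (4.79), which carries steroid sulfates, and Ttyh2 (6.08), a membrane protein, were higher in members, and so were the glutamate transporter Slc1a1 (5.38), Ctla2a (5.12), Fmo2 (5.12) and Hmcn1 (4.70). Of these 6, all but Ttyh2 had no arterial read on plate 043, and on plate 469 Ttyh2 differed by 0.94. The leptin receptor Lepr (4.59) stood at 25.8, 23.5, 10.6 and 55.5 CPM in members of plates 043, 044, 468 and 469, against 1 count in all 36 arterial cells. Slc1a4 had no read in the 36 arterial cells of these plates and stood at 57.0 CPM on plate 468 and 30.5 CPM on plate 469 in members, at least 177-fold higher in the summed counts against a floor of 3 counts over the group. The largest differences the other way were Fbln5 (-7.84), an elastic fibre protein, Vegfc (-6.99), a growth factor, Fbln2 (-6.57), Plcg2 (-6.46), Stmn2 (-6.37), Nos1 (-6.34), H2-Q6 (-6.17) and the secreted chaperone Clu (-5.99). Clu stood at 7.36 and 11.4 CPM in members and at 977 and 390 CPM in arterial cells of plates 468 and 469. H2-Q6 belongs to a family of near-identical genes and its count is uncertain. Among cells with under 100 CPM of mural genes, which left plate 469 alone, H2-Q6 changed sign to 0.47.

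Of 15 Notch pathway genes measured, 4 were lower in the members than in arterial cells, Hey1, Jag1, Jag2 and Notch4, and none was higher, where 4.32% of all genes were lower and 6.41% higher. The list median was 0.31 against 0.10 for all genes. Jag1, a ligand, stood at 90.3, 120, 90.6 and 91.6 CPM in members and at 585, 428, 262 and 360 CPM in arterial cells of plates 043, 044, 468 and 469, with no overlap. Notch4 stood at 69.3 and 111 CPM against 396 and 352 CPM on plates 468 and 469. Of 13 Wnt genes, Lef1 (1.34) and Apcdd1 (2.61) were higher in the members, with a list median of 0.15. Of 17 transcription factors, Lef1 was higher and Gata2, Sox7 and Sox17 were lower, with a list median of -0.24. Slc38a5 had no read in the arterial cells of plates 043 and 044 and stood there at 161 and 175 CPM on plates 468 and 469. Leaving aside Cldn5 and Pecam1, which both kinds of cell had to hold, 0 of 11 junction genes passed, near the 10.7% of all genes.

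**Figure D4:**
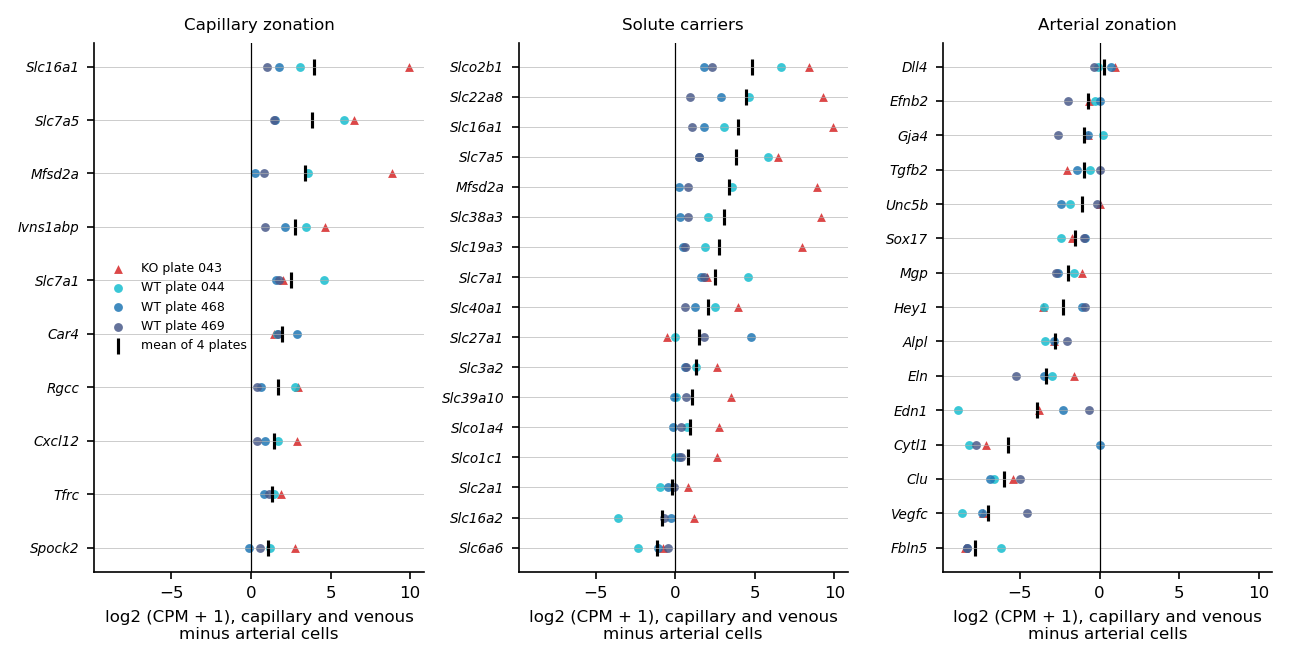
Difference in log2(CPM + 1) between the capillary and venous cells and the arterial cells of the same plate (x axis) for 3 gene lists (y axis), with 1 point per plate (triangle KO plate 043, circles WT plates) and a black bar for the mean of 4 plates. Capillary genes lie right of 0 apart from Spock2 on 1 plate, and plates 043 and 044 lie farther right than plates 468 and 469 for Slc16a1, Slc7a5 and Mfsd2a.

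Since Lef1 and 9 of the 10 capillary genes were higher in members than in arterial cells, the upstream sequence of the capillary genes was searched for CTTTGA, the core bound by TCF and LEF factors, on both strands of the 250 bases before the start site (RefSeq, GRCm38.p6). Of the 10 genes, 9 matched the RefSeq table. CTTTGA was present before 3 of these 9 genes, Mfsd2a, Cxcl12 and Spock2 (Spock2 was the gene of the list that did not pass), and before 14.1% of 27025 genes in the table. CAGGAAG, the only form of the ETS site searched, was present before 0 of the 9 and before 10.5% of all. Shorter and other forms of the ETS site were not searched, so their absence before these genes was not tested. Because they show where the letters lie, the sites are printed below within 60 bases, 5′ to 3′ in the direction of the gene, with the match in capitals, which begins 115, 162 and 133 bases before the start site of Mfsd2a, Cxcl12 and Spock2. A match is a description of the letters and not a bound site.
Mfsd2a, chr4:122961271-122961330, minus strand: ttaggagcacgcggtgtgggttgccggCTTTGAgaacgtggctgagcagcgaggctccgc
Cxcl12, chr6:117168346-117168405, plus strand: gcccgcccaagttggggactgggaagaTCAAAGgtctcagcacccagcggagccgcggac
Spock2, chr10:60106097-60106156, plus strand: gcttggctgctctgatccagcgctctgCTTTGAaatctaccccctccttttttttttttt

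For Notch3 KO against WT, the 15 KO cells were summed and set beside the sum of the 166 WT cells. Notch3 itself stood at 10.0 CPM on KO plate 043, 22.7 CPM on KO plate 467 and 0 CPM in the 1 cell of KO plate 471, and at 89.4, 97.9 and 83.2 CPM on WT plates 044, 468 and 469. The KO plates were below the WT plates without overlap, but single cells overlapped, with a Notch3 read in 5 of 15 KO and 50 of 166 WT cells. Over the whole series Notch3 stood at 69.5 CPM for KO and 200.4 CPM for WT, so the KO libraries still held Notch3 reads, and the counts do not show from which exons they came.

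Many genes differed between the genotypes, and a larger share differed between WT plate 044 and the other WT plates. With 10 CPM in either genotype, a read in 20% of its members and a 2-fold difference, 3117 of 9220 genes passed (33.8%), 1422 higher in KO (15.4%) and 1695 lower (18.4%). The same rule between WT plates 468 and 469 passed 14.3% of 7603 genes. Between WT plate 044 (8 cells) and WT plates 468 and 469 it passed 49.9% of 8696 genes, more than between the genotypes. Genotype, plate, number of cells and mural reads move together here, and their parts in the result were not tested. Since 0 KO cells held under 100 CPM of mural genes, the comparison could not be made without mural reads. Among cells with 1000 CPM or more (14 KO, 71 WT), 3271 of 9206 genes passed (35.5%). Without plate 043, which holds 10 of the 15 KO cells, 6864 genes passed.

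Smooth muscle genes were higher in the summed KO members, and the endothelial markers differed by less than 2-fold, but both statements depend on the plates compared. Of 6 smooth muscle genes measured, 6 were higher in KO, with a list median of 3.40 on the log2 scale against -0.05 for all genes measured. Acta2 stood at 1752 CPM on KO plate 043 and at 3451, 10.8 and 39.4 CPM on WT plates 044, 468 and 469, so WT plate 044 exceeded the KO plate. Leaving aside Cldn5 and Pecam1, which chose the members, 0 of 9 endothelial markers passed, with Slco1a4 at 2505 CPM in KO and 3263 CPM in WT (-0.38). Between the earlier plates 043 and 044, all 6 smooth muscle genes were lower in KO (-4.21 to -0.98) and the 9 endothelial markers differed by 0.09 to 1.20. Between the later plates (5 KO and 158 WT cells), the 6 smooth muscle genes were higher in KO (4.47 to 7.65) and the 9 endothelial markers lower (-3.29 to -2.14). The summed values thus hold opposite directions, and 10 of the 15 KO cells are from plate 043. Over all plates 0 of 11 junction genes other than Cldn5 and Pecam1 passed, where 33.8% of all genes measured did. These 11 also went opposite ways. Between the earlier plates 4 were higher in KO by 1 or more and 0 lower (median 0.67). Between the later plates 9 were lower by 1 or more and 0 higher (median -2.36). Of 17 solute carriers 1 passed over all plates, Slc7a1, an arginine transporter, at 191.5 against 823 CPM. Slc2a1 stood at 2149 and 2487 CPM (-0.21).

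Of all genes, 18.4% were lower in KO and 15.4% higher. Of 17 transcription factors, 6 were lower, Gata2, Klf4, Lef1, Sox17 and Sox7 among them, and Nr2f2 was higher. Of 10 adhesion and clotting genes, Icam1, Podxl, Vcam1 and Vwf were lower. The list medians were -0.71 and -0.84, against -0.05 for all genes. Podxl stood at 399 CPM on KO plate 043 and at 267, 822 and 1057 CPM on WT plates 044, 468 and 469, and Lef1 at 381 CPM and at 148, 552 and 873 CPM. In both, the KO plate lay between WT plate 044 and the later WT plates. Of 70 listed genes that passed, WT plate 044 stood beyond both later WT plates on the KO side in 55 (78.6%), while KO plate 043 stood outside all 3 WT plates in 27 (38.6%). For all 3117 genes that passed these shares were 59.9% and 59.4%. Of all 9220 genes measured, WT plate 044 lay outside plates 468 and 469 in 86.4%, in either direction. KO plate 043 lay outside all 3 WT plates in 52.7%, so such a position was common among all genes.

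**Figure D5:**
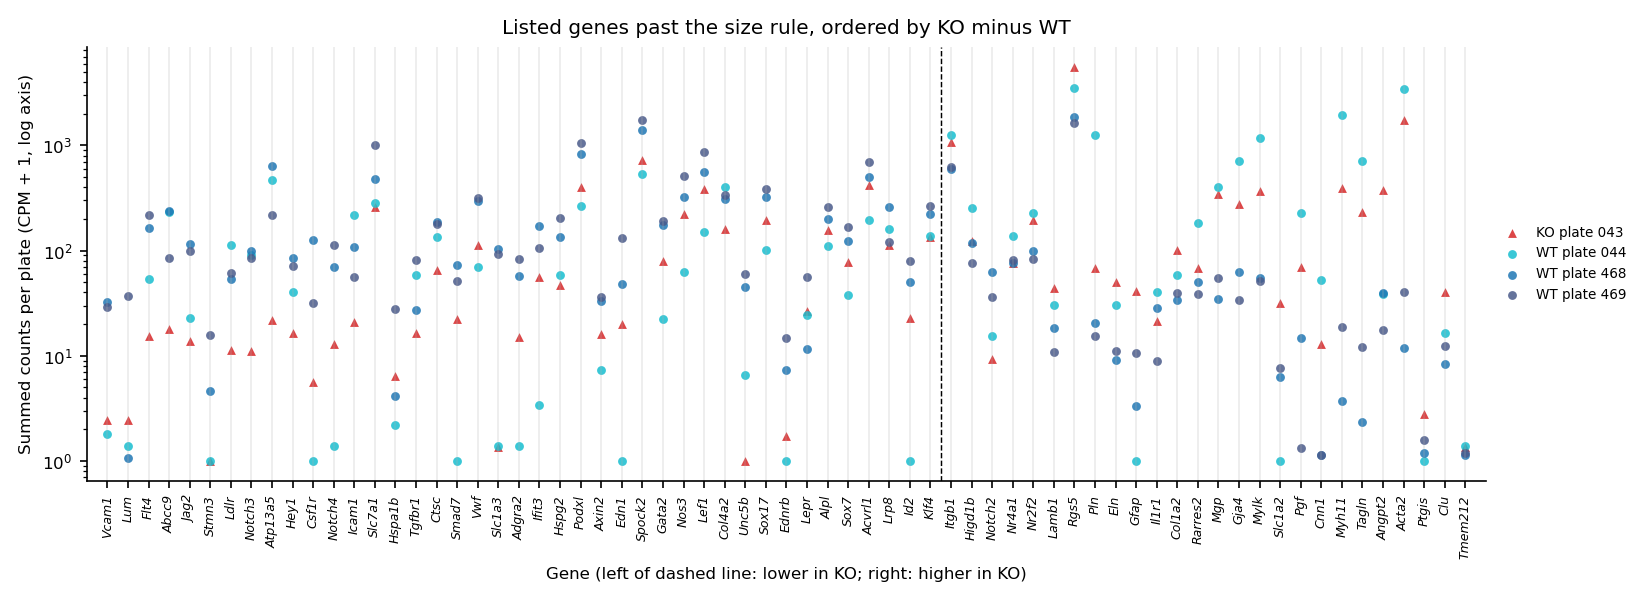
Of the 70 listed genes that passed the size rule between KO and WT members, 67 are drawn, ordered by KO minus WT, with summed counts in CPM plus 1 on a logarithmic y axis for KO plate 043 (triangles) and WT plates 044, 468 and 469 (circles); genes left of the dashed line were lower in KO. Over all 70 genes, for 55 of them WT plate 044 lies beyond plates 468 and 469 toward the KO side, as for Acta2, Podxl and Lef1.

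Of the genes that passed and where KO plate 043 stood outside all WT plates on the KO side, 2 belong to the growth factor list. Angpt2 stood at 374 CPM on KO plate 043 and at 37.5, 38.9 and 16.4 CPM on WT plates 044, 468 and 469, and was read in 8 of 15 KO and 25 of 166 WT cells. Its KO minus WT difference was 3.55, and 4.13 between the 6 cells of plate 043 and the 91 cells of plates 468 and 469 that held Rgs5 of 100 CPM or more with Acta2 under 100 CPM. Flt4 stood at 14.3 CPM on plate 043 and at 52.7, 164 and 217 CPM, a difference of -3.50, and -2.95 in the cells just named. Among Notch genes, Notch4 was lower (16.6 CPM in KO, 94.4 in WT), but stood at 0.399 CPM on WT plate 044. Jag2 was also lower (9.03 and 99.9 CPM), with 12.9 CPM on plate 043 below WT plate 044 (22.0 CPM). With Hey1 and Notch3 lower and Notch2 higher, 5 of 15 Notch genes passed, a share near that of all genes, and for Notch2 plate 043 was below all 3 WT plates, against the direction of the summed KO cells. In the TGF-beta and BMP list, Acvrl1, Id2, Smad7 and Tgfbr1 were lower and none of 13 was higher, where 18.4% and 15.4% of all genes were. For 3 of these 4, WT plate 044 was below KO plate 043: Acvrl1 stood at 195 against 422 CPM, Id2 at 0 against 21.9 CPM and Smad7 at 0 against 21.2 CPM.

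Some of the largest differences rested on few cells or on 1 plate. Higher in KO were Col3a1 (6.26), a fibrillar collagen, Tmem212 (5.95), Arhgap24 (5.88), Thbs1 (5.85), Ptgr1 (5.78), Ccdc108 (5.53), the ciliary dynein Dnah11 (5.43) and the neuropeptide Y receptor Npy1r (5.42). Tmem212, Ccdc108 and Dnah11 were read in 3 to 4 KO cells, and without the 1 cell of plate 471 their differences were 0.38, 0.76 and 0.50. That cell also held 3304 CPM of the ependymal list. Ptgr1 was read in 7 and Npy1r in 11 of the 15 KO cells. Npy1r stood at 181 CPM on KO plate 043, 136 on WT plate 044 and 0.134 and 0.224 on WT plates 468 and 469. Without plate 044 its difference was 8.08 and without plate 469 it was 3.98. Of the 8, Ptgr1 stayed as high (5.78) in the cells of plate 043 with Rgs5 and without Acta2, while Col3a1, Arhgap24, Thbs1 and Dnah11 were near 0 in both groups of those cells, at 0.577, 0, 0 and 0 CPM in KO and 1.63, 0.554, 0.0652 and 0.0326 CPM in WT.

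Among the largest differences the other way, lower in KO, were Npy, Trf, Mest, BC005561, Zranb1, Ahctf1 and Car14, each with 0 or 1 count in all KO cells together. There were 15 KO cells, and these genes were read in only 39 to 67 of the 166 WT cells, 61 for Trf and 39 for Car14. The interval and the floor below count reads and leave out the spread between cells. Trf, transferrin, held 1 count in KO, and stood at 45.5, 118 and 83.1 CPM on WT plates 044, 468 and 469, a WT-to-KO ratio of 363 with a counting interval of 65.2 to 14357. Car14, a carbonic anhydrase, had 0 counts in KO and stood at 47.1, 65.1 and 58.3 CPM on the WT plates, at least 79.3-fold lower against a floor of 3 counts over the group. For Trf and Car14 all 3 WT plates thus exceeded KO plate 043. Npy, Zranb1, Mest and Ahctf1 stood at 0, 0.798, 1.60 and 2.40 CPM on WT plate 044, near 0 as in KO.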

How the data were processed

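Each sample was 1 cell sequenced by Smart-seq2. The submitters' processing notes name TopHat2 2.1.1, SAMtools 0.1.18, featureCounts, Subread 1.4.6-p5 and the build GRCm38 (mm10), with annotation, strand setting and duplicate treatment not given there or in the labels. The authors deposited raw counts per gene symbol, as whole numbers for 30950 entries. Totals ran from 49473 to 763059 counts per cell, and 2 cells under 50000 were left out. No gene exceeded 4500 counts in any cell, and 0 columns were identical.

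Counts were scaled to CPM per cell, or summed over members per plate or genotype and then scaled. Differences are of log2(CPM + 1), which understates those of low genes. TMM factors came from edgeR 4.0.16 (R 4.3.3), other steps from Python 3.11.15, NumPy 2.4.6, pandas 2.3.3 and SciPy 1.17.1, checked on simulated data. No doublet caller was run.

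Members and gene lists were chosen with earlier results of these data known. Named genes were the markers, the highest genes of each list on plates 468 and 469, listed genes past the size rule, and the 8 largest differences in each direction, leaving out predicted gene models, Rik genes, pseudogenes and sex-linked genes. Some genes of these sets are not reported here. Other genes of the lists were named after their values were seen.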

Additional observations from a re-analysis of the deposited data

How the results depend on the processing

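Each genotype counts as 1 sample and members per plate are few outside plates 468 and 469, which limits every KO value. Restricting members to under 100 CPM of mural genes left 0% of KO and 5.60% of WT cells, so that setting gave no KO value. The KO against WT count of 3117 genes became 8315 with no filter on low values, 1045 at 4-fold, 6901 on later plates only, 4911 on earlier plates only, and 2876 to 6864 on leaving out 1 plate. The arterial count of 916 became 1407 with no filter, 4341 with few mural reads (plate 469 alone), and 1460 to 1651 on leaving out 1 plate. The index count of 1 became 26 with few mural reads, 2 after thinning and 37 at a correlation of 0.3. The median level over all listed genes, 183 CPM, became 186 CPM with few mural reads and 177 CPM as a mean over cells. Tmem212 changed sign to -0.043 on earlier plates only, and H2-Q6 to 0.47 against arterial cells with few mural reads.

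Alternatives chosen after seeing the data were members with 2 of 3 other endothelial markers (2187 arterial genes, 0 index genes, 195 CPM), later WT plates only (2185 arterial genes), mural genes of 1000 CPM or more, and the cells with Rgs5 and without Acta2. In the last, Col3a1, Arhgap24, Thbs1 and Dnah11 came to -0.74, -0.64, -0.091 and -0.046, differences between levels near 0 in both groups. The cause of these changes was not tested, and each of these settings also holds fewer plates or cells. The comparison with arterial cells took differences within each plate. KO and WT cells shared no plate, so the genotypes could not be paired by plate.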
